A study of Homo sapiens with 12 samples.

Results

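Glycolysis and hypoxia response genes were followed in RBE cells, an established human cholangiocarcinoma line. The list holds 33 genes, matched by exact symbol among the 55773 gene entries of the count table, and all 33 were found there. They are the enzymes of glycolysis, the transporters of glucose and lactate, the PFKFB regulators, the kinases that restrain pyruvate oxidation, and HIF1A with 6 of the genes it is known to control. The series asked how 2-hydroxyglutarate (2-HG), the product of mutant IDH1, alters gene expression directed by p53. All cells had 22 days of pretreatment. In the group named vehicle this was DMSO, followed by DMSO again in place of Nutlin. In vehicle_Nutlin it was DMSO followed by 72 hours with 5 µM Nutlin. AG120 cells had 5 µM AG-120 followed by DMSO in place of Nutlin. AG120_Nutlin cells had 5 µM AG-120 followed by 72 hours with 5 µM Nutlin. AG-120 inhibits mutant IDH1, and Nutlin keeps MDM2 from p53. Each group held 3 libraries of poly(A) RNA. All libraries come from 1 cell line, and the labels name no exposure to low oxygen and do not say whether replicates were separate cultures. The p-values therefore measure the spread between these samples, which may be technical.

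Glycolysis splits glucose into pyruvate. Its upper steps spend ATP and its lower steps regain it, and lactate dehydrogenase turns pyruvate into lactate for export when it does not enter mitochondria. Hypoxia-inducible factor (HIF) is a pair of an oxygen-sensitive alpha subunit such as HIF-1α, the product of HIF1A, and the stable partner ARNT. With oxygen present, prolyl hydroxylases that need 2-oxoglutarate mark the alpha subunit for destruction, so HIF1A mRNA does not report the amount of the protein. HIF is known to raise nearly every step of glycolysis together with carbonic anhydrase, angiogenic factors and mitophagy receptors. p53 is known to restrain glycolysis at several points, for example through TIGAR, and to act on some genes that HIF also controls.

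Library totals ran from 16840161 to 27499433 counts. Levels are given as CPM, read counts scaled to a common library size after TMM, the trimmed mean of M values. Changes are log2 fold changes from 1 edgeR quasi-likelihood model of all 12 libraries, with the standard error (SE). The threshold for calling a change was an adjusted p of 0.05 (Benjamini-Hochberg over 15691 tested genes). As a check of Nutlin, the p53 target MDM2 went from 146 ± 6.97 to 2847 ± 694 CPM with Nutlin in vehicle cells and from 163 ± 26.5 to 3343 ± 16.0 CPM in AG-120 cells (mean ± SD, n = 3). The corresponding levels of CDKN1A were 379.8 ± 13.1 and 8444 ± 837 CPM, and 446 ± 58.0 and 10227 ± 167 CPM. Mitochondrial genes took 1.02% to 1.74% of counts without Nutlin, 3.20% to 4.42% in 5 libraries with it and 1.71% in vehicle_Nutlin replicate 3. Strand is not stated for the counting, so a gene and an antisense neighbour, as at HIF1A, cannot be told apart. All 8 biliary epithelial markers were measured, and their summed level was 5610.3 to 5975 CPM in vehicle, 6338 to 8208 CPM in vehicle_Nutlin, 6317 to 7979 CPM in AG120 and 4974 to 5229 CPM in AG120_Nutlin, which lay below the other groups. Leukocyte markers summed to at most 0.685 CPM and endothelial markers to at most 1.06 CPM in any library. Of 6 hepatocyte markers, 3 were tested, and their list summed to 128 to 195 CPM without Nutlin and 263 to 332 CPM with it. Most of this sum was SERPINA1 alone, at 114 to 167 CPM without Nutlin and 257 to 327 CPM with it. HNF4A went the other way, from 12.2 to 27.3 CPM without Nutlin to 2.78 to 6.02 CPM with it. Each of the other hepatocyte markers stayed at or below 2.01 CPM. Of 6 fibroblast markers, DCN and LUM were at 0 in every library, and the summed level was 36.0 to 43.4 CPM without Nutlin and 2.41 to 5.29 CPM with it. Erythroid markers summed to at most 0.201 CPM. The part of the mitochondrial share and of the biliary, hepatocyte and fibroblast lists in the results was not tested. Libraries labelled vehicle_Nutlin and AG120 differed most from their own replicates. A library's deviation from the other 2 of its group correlated with transcript length across genes, which are not independent, at -0.314 to 0.296 (Spearman) in vehicle_Nutlin and -0.386 to 0.398 in AG120. In vehicle and AG120_Nutlin it was -0.0910 to 0.114. Results are also given without vehicle_Nutlin replicate 3. A second set leaves out vehicle_Nutlin replicates 2 and 3 and AG120 replicate 1, named here, as a label only, the 3 libraries that stood apart. In vehicle_Nutlin, 7.58%, 11.8% and 15.0% of genes lay over 2-fold from the other 2 libraries (replicates 1, 2 and 3). In AG120 the shares were 4.64%, 2.47% and 3.10%. The length correlation does not single out these 3, as vehicle_Nutlin replicate 2 had 0.191, the smallest of its group in size. Pairs of libraries were also compared by a chi-square per gene, which is larger for libraries that differ more. In vehicle_Nutlin it was 25.6 for replicates 1 and 2, 120 for 1 and 3, and 149 for 2 and 3. Replicate 2 thus lay nearer to replicate 1 than replicate 3 did to either. In AG120 it was 31.0 for 1 and 2, 47.9 for 1 and 3, and 9.46 for 2 and 3.

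The first question was what p53 activation did to these genes, in cells kept in vehicle and in cells kept in AG-120. Nutlin lowered more of the list than it raised. Lactate dehydrogenase A (LDHA), pyruvate dehydrogenase kinase 1 (PDK1), hexokinase 2 (HK2), enolase 1 (ENO1) and glucose-6-phosphate isomerase (GPI) fell, while NDRG1, adrenomedullin (ADM), enolase 2 (ENO2) and the liver-type phosphofructokinase PFKL rose. Of the 30 members with enough counts to be tested, 14 fell and 8 rose in vehicle cells, and 17 fell and 8 rose in AG-120 cells. Among all genes tested, 27.1% were called lower and 26.8% higher in vehicle cells, and 28.8% and 27% in AG-120 cells. Falls were thus called in a larger share of the members than of all genes, and rises in about the same share. The members' median log2 fold change was -0.24 in vehicle cells and -0.41 in AG-120 cells, beside -0.02 and 0.00 for all genes. These medians are over the tested members only, and they describe the list without a test. At least 2-fold, 9 members fell in each response, against 13.9% and 15.2% of all genes, and 2 and 3 rose, against 11.8% and 12.9%. The 2 responses use separate libraries. All 14 members that fell in vehicle cells also fell in AG-120 cells, where they made up 82.4% of the 17, and the same 8 members rose in both. Members called lower only in AG-120 cells were ALDOA, GAPDH and PGK1. In this bulk measurement, fewer cells of a kind and less RNA per cell cannot be told apart, and a level is always relative to the other mRNAs.

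**Figure D1:**
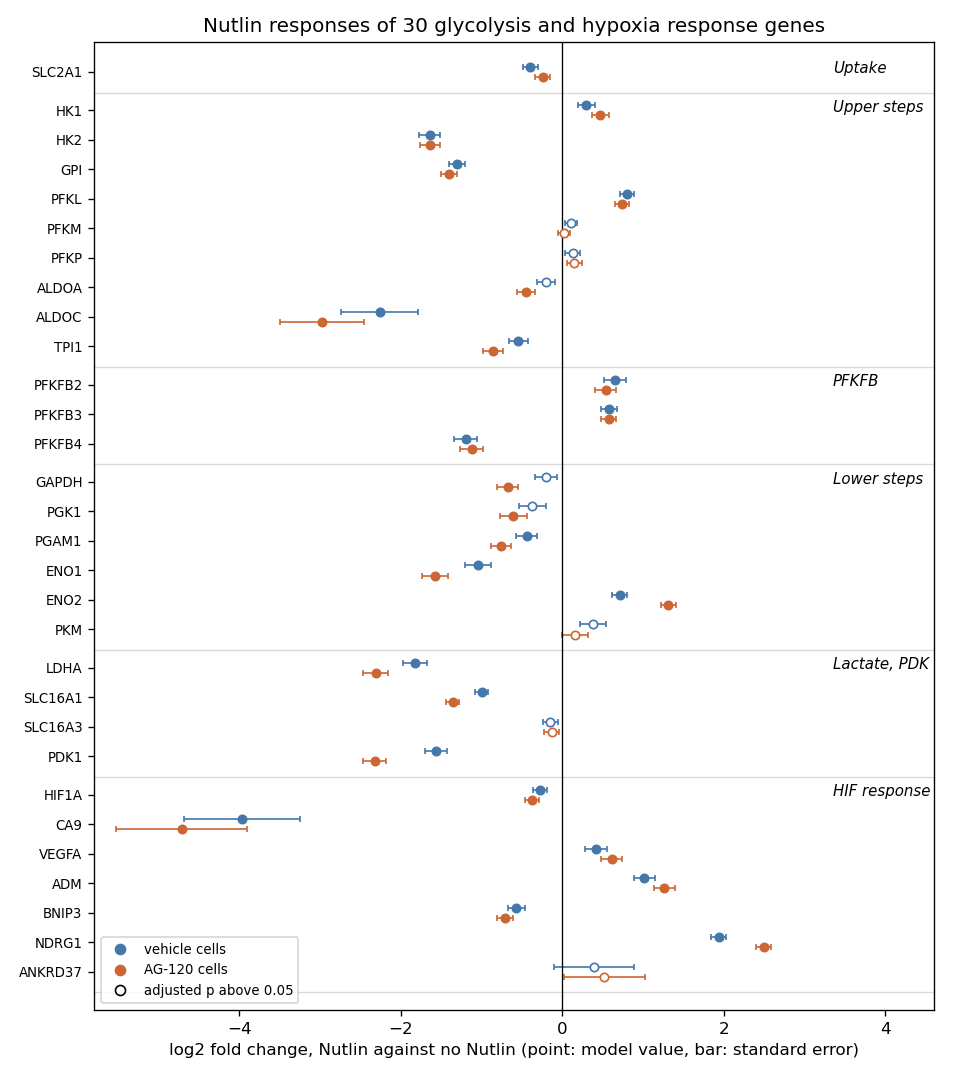
Log2 fold change with Nutlin (x axis; bars are SE) for the 30 tested members, grouped by role on the y axis, in vehicle cells (blue) and AG-120 cells (orange), with open points for values that were not called. The points of each pair lie on the same side of 0, CA9, LDHA and PDK1 lie far to the left and NDRG1 farthest to the right.

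Without vehicle_Nutlin replicate 3, the vehicle response counted 17 members lower and 9 higher. That fit called 9348 of all genes, against 8464 with all libraries. Without the 3 libraries that stood apart, LDHA had -2.06 in vehicle cells and -2.24 in AG-120 cells (log2), and NDRG1 had 1.81 and 2.55. A fit with each library's trend on transcript length as an offset gave 14 lower and 8 higher in vehicle cells and 16 lower and 8 higher in AG-120 cells.

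Glucose enters through facilitative transporters. SLC2A1 (GLUT1), the common transporter of proliferating cells (chromosome 1, 43391052 to 43424530; all gene positions are hg19), stood at 122, 122 and 124 CPM in vehicle and 82.5, 95.1 and 102 CPM in vehicle_Nutlin. It stood at 111, 114 and 110.2 CPM in AG120 and 92.8, 99.4 and 91.2 CPM in AG120_Nutlin. Levels were lower in every Nutlin library, and SLC2A1 fell in vehicle cells (log2 -0.40 ± 0.09 SE, adjusted p = 0.002274) and in AG-120 cells (-0.24 ± 0.09, adjusted p = 0.03321). The second call ended without any 1 of the vehicle libraries, AG120 replicate 2 or 3, or any 1 of the AG120_Nutlin libraries (adjusted p from 0.05263 to 0.1159). SLC2A3 (GLUT3), the high-affinity transporter that many hypoxic cells add, was not tested: it had 3 counts in all vehicle libraries together, 3 in AG120 and 0 in both Nutlin groups. A count of 0 allows up to 0.0509 CPM in vehicle_Nutlin and 0.0557 CPM in AG120_Nutlin, from a floor of 3 counts over the group.

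Hexokinase traps glucose by phosphorylating it. HK2, the inducible hexokinase of many tumours (chromosome 2, 75061108 to 75120486), stood at 36.7, 39.0 and 39.4 CPM in vehicle and 13.6, 12.3 and 10.9 CPM in vehicle_Nutlin. It stood at 49.4, 45.6 and 41.4 CPM in AG120 and 16.9, 12.9 and 14.1 CPM in AG120_Nutlin. No Nutlin library came near a library without it, and HK2 fell 3.13-fold in vehicle cells (adjusted p = 1.903e-07) and 3.11-fold in AG-120 cells (adjusted p = 1.622e-07). HK1, the constitutive form, went the other way, from 152 ± 2.20 to 186 ± 11.1 CPM (mean ± SD, n = 3) in vehicle cells and from 160.4 ± 24.6 to 222 ± 3.74 CPM in AG-120 cells. It rose by 0.29 ± 0.10 (adjusted p = 0.03046) and 0.47 ± 0.10 (adjusted p = 0.001944) on the log2 scale, and leaving out any 1 vehicle library ended the call in vehicle cells (adjusted p = 0.06332, 0.0702 and 0.07645).

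GPI, which makes fructose-6-phosphate (chromosome 19, 34850385 to 34893061), stood at 390.5, 392 and 378 CPM in vehicle and 158, 154 and 157 CPM in vehicle_Nutlin. It stood at 441, 345 and 358 CPM in AG120 and 144, 139.6 and 148 CPM in AG120_Nutlin. Replicates with Nutlin differed by only a few CPM, and GPI fell 2.47-fold (adjusted p = 1.785e-07) and 2.65-fold (adjusted p = 7.802e-08). Phosphofructokinase commits the sugar to glycolysis, and its 3 subunit genes did not move alike. PFKL rose 1.74-fold, from 231 ± 9.97 to 402 ± 7.67 CPM, in vehicle cells, and 1.67-fold, from 256 ± 19.0 to 427 ± 12.7 CPM, in AG-120 cells (adjusted p = 4.493e-06 and 8.436e-06). PFKP, the platelet-type subunit, had changes of 0.13 ± 0.09 and 0.15 ± 0.09, and PFKM, the muscle-type subunit, of 0.11 ± 0.08 and 0.02 ± 0.08 (log2), none of them called. Without vehicle_Nutlin replicate 3, PFKP was called in vehicle cells (0.20, adjusted p = 0.01913).

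Aldolase splits the phosphorylated fructose, and triosephosphate isomerase (TPI1) balances the products. ALDOC, the brain-type aldolase and a gene HIF is known to raise, was low: counts were 68, 49 and 97 in vehicle, 8, 6 and 26 in vehicle_Nutlin, 47, 79 and 77 in AG120 and 14, 4 and 4 in AG120_Nutlin. It fell 4.80-fold in vehicle cells and 7.88-fold in AG-120 cells (adjusted p = 0.001464 and 0.0003198). ALDOA, the main form, fell in AG-120 cells (log2 -0.45 ± 0.11, adjusted p = 0.004298), from 2329.7 ± 225 to 1706 ± 5.55 CPM, and had -0.20 ± 0.11 in vehicle cells (adjusted p = 0.1494). Leaving out vehicle_Nutlin replicate 3 made the latter -0.32, and it was called (adjusted p = 0.006648). TPI1 fell 1.46-fold (adjusted p = 0.001958) and 1.82-fold (adjusted p = 4.947e-05).

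The PFKFB enzymes make and remove fructose-2,6-bisphosphate, the strongest activator of phosphofructokinase, and they split in direction. PFKFB4 (chromosome 3, 48555117 to 48599448) stood at 12.6, 11.7 and 10.7 CPM in vehicle and 5.08, 5.39 and 4.74 CPM in vehicle_Nutlin. It stood at 9.77, 11.5 and 12.9 CPM in AG120 and 5.49, 5.33 and 4.82 CPM in AG120_Nutlin, and fell 2.30-fold and 2.18-fold (adjusted p = 1.205e-05 and 2.043e-05). PFKFB3, the form with the highest ratio of kinase to phosphatase activity, rose 1.49-fold to 757 ± 56.7 CPM and 1.49-fold to 731 ± 9.92 CPM (adjusted p = 0.0002411 and 0.0002304). PFKFB2, the heart-type form, rose 1.57-fold and 1.45-fold (adjusted p = 0.00121 and 0.003819), from 8.80 ± 0.325 CPM in vehicle and 12.1 ± 2.21 CPM in AG120.

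The lower steps hold some of the most abundant mRNAs of the cell. GAPDH, the dehydrogenase often used as a reference transcript (chromosome 12, 6643093 to 6647537), stood at 3845, 4146 and 3865 CPM in vehicle and 3024, 3129 and 4163 CPM in vehicle_Nutlin. It stood at 4961, 4032 and 3997 CPM in AG120 and 2769.5, 2676 and 2662 CPM in AG120_Nutlin. The Nutlin libraries were all lower in AG-120 cells, but in vehicle cells replicate 3 with Nutlin lay above every vehicle library. GAPDH fell 1.60-fold in AG-120 cells (adjusted p = 0.0008755) and had -0.20 ± 0.14 in vehicle cells (adjusted p = 0.2309). Without vehicle_Nutlin replicate 3 the value was -0.37 and was called (adjusted p = 0.005119). PGK1, which regains ATP, was also highest of its group in that library, at 459, 451 and 744 CPM in vehicle_Nutlin against 715 ± 27.7 CPM in vehicle (mean ± SD, n = 3). Its change was -0.37 ± 0.17 with all libraries (adjusted p = 0.07665) and -0.66 without that replicate (adjusted p = 1.848e-05), and it fell in AG-120 cells (log2 -0.61 ± 0.17, adjusted p = 0.007671).

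PGAM1, a mutase, fell 1.36-fold and 1.70-fold (adjusted p = 0.009402 and 0.0001959). The enolases, which make phosphoenolpyruvate, went apart. ENO1, the ubiquitous form (chromosome 1, 8921061 to 8939308), stood at 2636, 2634 and 2524 CPM in vehicle and 1081, 1070.2 and 1618 CPM in vehicle_Nutlin. It stood at 3234, 2575 and 2453 CPM in AG120 and 915, 897 and 955 CPM in AG120_Nutlin, and fell 2.07-fold and 2.99-fold (adjusted p = 0.0001083 and 2.732e-06). ENO2, the neuronal form (chromosome 12, 7022909 to 7032861), stood at 82.9, 76.4 and 84.5 CPM in vehicle and 142, 136 and 121 CPM in vehicle_Nutlin. It stood at 70.1, 80.1 and 79.5 CPM in AG120 and 184, 195 and 191 CPM in AG120_Nutlin. Here every Nutlin library was above every library without it, and ENO2 rose 1.63-fold in vehicle cells and 2.48-fold in AG-120 cells (adjusted p = 2.772e-05 and 8.429e-08). PKM, the pyruvate kinase of tumour cells, was not called, at 0.38 ± 0.16 and 0.15 ± 0.16, and vehicle_Nutlin replicate 3 stood at 6121 CPM against 3898 and 3863 CPM in its replicates. Without replicate 1 or 2 of vehicle_Nutlin PKM was called higher (adjusted p = 0.02678 and 0.02338). Several of these genes, GAPDH, PGK1, ENO1 and LDHA among them, have processed pseudogenes, and how reads shared with such copies were counted is not given in the sources used here.

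**Figure D2:**
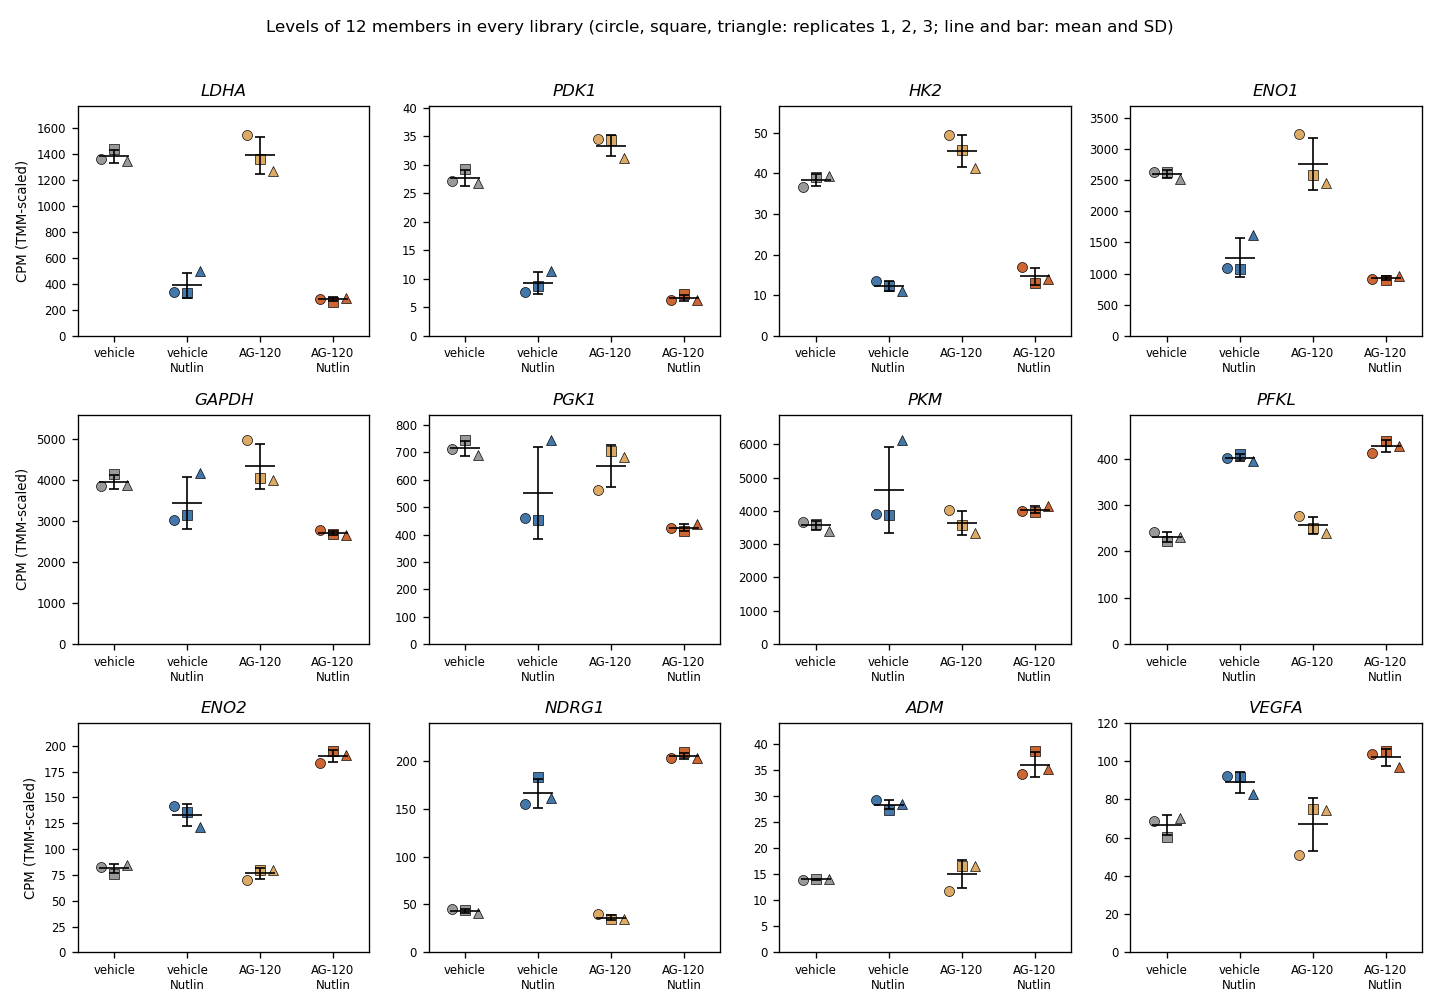
TMM-scaled CPM of 12 members (y axes, linear from 0) in each library of the 4 groups (x axes), with the mean and SD as line and bar. LDHA, PDK1, HK2 and ENO1 drop with Nutlin in both backgrounds, PFKL, ENO2, NDRG1 and ADM climb, and the triangle of vehicle_Nutlin replicate 3 stands high for GAPDH, PGK1 and PKM.

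Pyruvate then becomes lactate or enters mitochondria. LDHA (chromosome 11, 18415935 to 18429972) stood at 1360.3, 1443 and 1349 CPM in vehicle and 338, 331 and 502 CPM in vehicle_Nutlin. It stood at 1546, 1359.9 and 1268 CPM in AG120 and 283, 264 and 294 CPM in AG120_Nutlin. The groups with and without Nutlin were far apart, and LDHA fell 3.55-fold in vehicle cells (adjusted p = 4.562e-07) and 4.96-fold in AG-120 cells (adjusted p = 4.911e-08). LDHB, the subunit that favours the return to pyruvate, was all but absent, with 1 count in vehicle, 3 in vehicle_Nutlin, 0 in AG120 and 4 in AG120_Nutlin over all libraries of each group. The 12 libraries thus carried LDHA with hardly any LDHB at the level of mRNA.

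PDK1, which switches off pyruvate dehydrogenase and is a known HIF target (chromosome 2, 173420101 to 173489823), stood at 27.1, 29.2 and 26.8 CPM in vehicle and 7.68, 8.81 and 11.4 CPM in vehicle_Nutlin. It stood at 34.5, 34.3 and 31.2 CPM in AG120 and 6.33, 7.25 and 6.35 CPM in AG120_Nutlin. PDK1 fell 2.96-fold and 5.00-fold (adjusted p = 7.440e-07 and 2.088e-08). PDK3, a related kinase, had 6 counts in vehicle, 23 in vehicle_Nutlin, 17 in AG120 and 13 in AG120_Nutlin over each group, and was not tested. SLC16A1 (MCT1), which carries lactate and pyruvate across the membrane (chromosome 1, 113454469 to 113499635), stood at 61.8, 62.1 and 60.0 CPM in vehicle and 31.2, 30.9 and 29.8 CPM in vehicle_Nutlin. It stood at 67.1, 60.6 and 59.9 CPM in AG120 and 23.4, 25.3 and 24.4 CPM in AG120_Nutlin. The groups did not overlap, and SLC16A1 fell 2.00-fold and 2.57-fold (adjusted p = 4.374e-07 and 2.248e-08). SLC16A3 (MCT4), the lactate exporter that HIF is known to raise, was not called, at -0.15 ± 0.09 and -0.13 ± 0.09 (log2), between 189 ± 19.2 CPM in vehicle_Nutlin and 239.7 ± 5.99 CPM in AG120.

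Within families, the balance between forms differed between groups. To compare genes, levels were divided by transcript length (CPM per kilobase, with 1 principal transcript per gene from GENCODE 29), and shares were taken among the members of a family that are on the list, so that other forms, such as HKDC1, are not counted. HK2 made up 13.6% ± 0.618 of the sum of HK1 and HK2 in vehicle and 3.98% ± 0.560 in vehicle_Nutlin (mean ± SD, n = 3), and 15.1% ± 0.841 in AG120 and 3.95% ± 0.574 in AG120_Nutlin. ENO2 made up 2.53% ± 0.177 of the sum of ENO1 and ENO2 in vehicle, 8.39% ± 2.21 in vehicle_Nutlin, 2.30% ± 0.464 in AG120 and 14.6% ± 0.608 in AG120_Nutlin. PFKL made up 21.7% ± 0.372, 30.8% ± 1.55, 23.7% ± 1.34 and 32.1% ± 0.429 of the sum of PFKL, PFKM and PFKP in the same order, and PFKP remained the most abundant of the 3 forms in every group. SLC16A1 made up 24.4% ± 0.631, 15.3% ± 1.31, 22.4% ± 1.48 and 11.0% ± 0.283 of the sum of SLC16A1 and SLC16A3. For each of these shares the libraries with and without Nutlin did not overlap. ALDOA was over 99% of the sum of ALDOA and ALDOC, and PFKFB3 over 95% of that of PFKFB2, PFKFB3 and PFKFB4, in every library. The shares restate the single-gene changes above and have no test of their own.

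**Figure D3:**
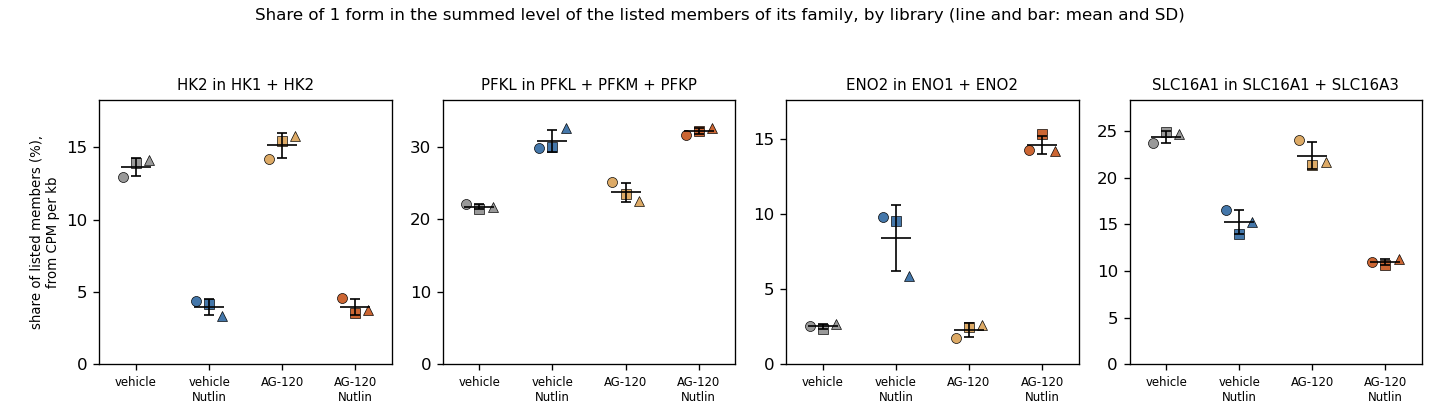
Share of 1 form in the summed level of its family's members on the list (y axes, percent, from CPM per kilobase) in each library of the 4 groups (x axes), with the mean and SD as line and bar. HK2 and SLC16A1 take smaller shares with Nutlin, PFKL and ENO2 larger ones, and ENO2 is highest in AG120_Nutlin.

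HIF binds a short core, ACGTG or GCGTG, in regulatory DNA. Promoters were taken from RefSeq (GRCh38.p14, 250 bases before to 50 after a gene's start) and searched for both spellings on both strands, where the E-box CACGTG, which MYC and USF proteins bind, contains the first of them. Entries were found for 28 of the 33 members, 55 promoters in all. The core occurred in 37 of these 55 (67.3%) and in 48.4% of all 35116 promoters, and CACGTG in 8 of 55 and in 7.26% of all. By gene, the core was present in at least 1 promoter of 27 of the 28 members and of 52.4% of all genes. The members had 55 promoters for 28 genes, and all genes 35116 for 27305. A gene with more promoters has more places to hold the core, so the shares by promoter are the closer comparison. Among members with an entry, the core was in 15 of the 16 that fell with Nutlin, all 5 that rose and all 7 others. No entry was found for the risers NDRG1, VEGFA and PFKFB2, for SLC16A1, which fell, or for SLC2A3. Nearly every member with an entry thus holds the core in at least 1 promoter, and this count by gene cannot part the directions of these members. Shares by promoter were not split by direction. LDHA, CA9 and PDK1 are shown because they fell and are known HIF targets, and ENO2 because it rose. LDHA and PDK1 have 2 promoters each in the table, and the one with more cores is shown. The other holds 1 core for LDHA and 0 for PDK1. Capitals mark the core on either strand, with both strands' matches joined in an E-box, and sequences run 5′ to 3′ along the gene's strand.
LDHA (chr11:18394313-18394612, + strand): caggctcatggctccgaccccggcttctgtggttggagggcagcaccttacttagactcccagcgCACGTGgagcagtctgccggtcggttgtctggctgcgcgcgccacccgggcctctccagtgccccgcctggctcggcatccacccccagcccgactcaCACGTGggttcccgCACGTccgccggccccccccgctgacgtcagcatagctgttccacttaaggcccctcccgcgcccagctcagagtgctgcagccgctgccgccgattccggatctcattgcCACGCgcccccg
CA9 (chr9:35673678-35673977, + strand): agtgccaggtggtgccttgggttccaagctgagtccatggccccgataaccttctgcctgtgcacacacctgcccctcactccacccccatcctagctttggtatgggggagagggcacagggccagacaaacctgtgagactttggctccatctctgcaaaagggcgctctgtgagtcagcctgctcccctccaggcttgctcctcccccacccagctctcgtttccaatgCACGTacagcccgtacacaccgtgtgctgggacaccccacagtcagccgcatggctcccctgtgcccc
PDK1 (chr2:172555840-172556139, + strand): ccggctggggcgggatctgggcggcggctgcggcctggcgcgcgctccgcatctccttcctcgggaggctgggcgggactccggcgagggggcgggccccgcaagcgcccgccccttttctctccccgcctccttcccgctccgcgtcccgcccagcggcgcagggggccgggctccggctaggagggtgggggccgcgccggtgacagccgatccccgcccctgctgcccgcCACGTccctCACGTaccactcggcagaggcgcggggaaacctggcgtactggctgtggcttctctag
ENO2 (chr12:6914330-6914629, + strand): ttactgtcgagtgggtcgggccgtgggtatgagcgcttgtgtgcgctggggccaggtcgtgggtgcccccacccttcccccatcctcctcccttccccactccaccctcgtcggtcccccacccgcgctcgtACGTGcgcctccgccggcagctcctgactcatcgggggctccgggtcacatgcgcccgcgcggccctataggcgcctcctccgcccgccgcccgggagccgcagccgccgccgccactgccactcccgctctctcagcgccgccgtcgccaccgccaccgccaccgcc
The LDHA window holds the core within 2 copies of the E-box and at 2 further places, PDK1 holds it at 2 places a few bases apart near the gene's start, and CA9 and ENO2 hold it at 1 place each. A match of letters describes the window and is no evidence of binding.

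Genes of the hypoxia response outside glycolysis did not move as a block. HIF1A itself (chromosome 14, 62162231 to 62214976) stood at 396, 403 and 382 CPM in vehicle and 340.2, 311 and 319.7 CPM in vehicle_Nutlin. It stood at 464, 442 and 409 CPM in AG120 and 344, 323 and 345 CPM in AG120_Nutlin, and fell by a small margin (log2 -0.28 ± 0.09 and -0.38 ± 0.09, adjusted p = 0.0136 and 0.002136). Without vehicle replicate 2 the first was not called (adjusted p = 0.05801). CA9, the membrane carbonic anhydrase widely read as a hypoxia marker, was scarce: counts were 41, 41 and 67 in vehicle, 7, 0 and 1 in vehicle_Nutlin, 42, 34 and 53 in AG120 and 0, 4 and 0 in AG120_Nutlin. Even so every Nutlin library was below every other, and CA9 fell (log2 -3.97 ± 0.72 and -4.71 ± 0.81, adjusted p = 0.0004492 and 0.0002719). With so few counts the size is loosely fixed, and alternative settings put it between -6.16 and -2.59 in vehicle cells and between -8.39 and -4.21 in AG-120 cells. BNIP3, a mitophagy receptor, fell 1.48-fold and 1.64-fold (adjusted p = 0.0003619 and 4.986e-05), to 69.2 ± 7.93 and 65.9 ± 3.90 CPM.

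Others rose. NDRG1, a growth-restraining gene that both hypoxia and p53 are known to raise, stood at 44.8, 44.2 and 41.0 CPM in vehicle and 154, 183 and 161 CPM in vehicle_Nutlin. It stood at 39.8, 34.7 and 34.6 CPM in AG120 and 203, 209 and 203 CPM in AG120_Nutlin, and rose 3.83-fold and 5.62-fold (adjusted p = 3.406e-09 and 3.691e-10), the largest rise of the list in both responses. ADM, a secreted vasodilator peptide (chromosome 11, 10326227 to 10328944), stood at 13.9, 14.1 and 14.0 CPM in vehicle and 29.3, 27.4 and 28.5 CPM in vehicle_Nutlin. It stood at 11.9, 16.7 and 16.7 CPM in AG120 and 34.2, 38.8 and 35.3 CPM in AG120_Nutlin, and rose 2.02-fold and 2.40-fold (adjusted p = 1.872e-05 and 2.314e-06). VEGFA, the angiogenic factor (chromosome 6, 43737921 to 43754224), stood at 68.7, 60.6 and 70.1 CPM in vehicle and 92.1, 91.7 and 82.8 CPM in vehicle_Nutlin. It stood at 51.1, 75.0 and 74.7 CPM in AG120 and 104, 105 and 97.1 CPM in AG120_Nutlin. Both responses were small beside that of NDRG1, with rises of 0.42 ± 0.13 and 0.61 ± 0.13 on the log2 scale (adjusted p = 0.01823 and 0.001758), and without vehicle replicate 2 the first was not called (adjusted p = 0.07338). ANKRD37, a HIF target of unclear function, had 7 to 28 counts per library and was not called, at 0.39 ± 0.50 and 0.52 ± 0.50.

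Counts for the related lists that follow stand beside shares of all genes. These were 26.8% higher and 27.1% lower in vehicle cells, and 27% and 28.8% in AG-120 cells. No list count was tested against them. Among 29 other HIF target genes, 10 rose and 11 fell in vehicle cells, and 13 rose and 11 fell in AG-120 cells, with medians of 0.18 and 0.23. The prolyl 4-hydroxylase P4HA2, which works on collagen, rose by 1.97 and 1.92 on the log2 scale, the transcriptional repressor BHLHE40, also a p53 target, by 2.34 and 2.66, and the glycogen branching enzyme GBE1 by 1.86 and 1.83. RIOK3, a kinase, rose by 1.29 and 1.14. Of 15 oxygen-sensing genes and HIF partners, 4 rose and 2 fell in each response, with medians of -0.19 and 0.14. Rises were about as frequent as among all genes, and falls less so. EPAS1, which encodes HIF-2α, rose from 145 ± 2.87 to 559.7 ± 156 CPM in vehicle cells and from 166 ± 23.9 to 686 ± 15.3 CPM in AG-120 cells (log2 1.95 and 2.05), while HIF1A fell. CITED2, which competes with HIF for its coactivators, fell (log2 -1.23 and -1.79). The elongin B gene TCEB2, part of the VHL ubiquitin ligase, rose by 1.35 and 1.00, and HIF1AN, the asparaginyl hydroxylase that restrains HIF, by 0.45 and 0.34. Without vehicle_Nutlin replicate 3, 6 of the 15 rose and 4 fell in AG-120 cells, and 4 rose and 2 fell in vehicle cells. In AG-120 cells that fit called 10311 of all genes, against 8747 with all libraries.

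Neighbouring pathways of glucose use were mixed as well, and the same shares of all genes apply to their counts. In the pentose phosphate pathway, 4 of 8 tested genes rose and 4 fell in vehicle cells and 3 rose and 3 fell in AG-120 cells, with medians of -0.04 and -0.14. TKT, a transketolase, rose by 0.91 and 0.73 on the log2 scale, while TALDO1, the transaldolase (-0.51 and -0.75), and PRPS1, which makes the nucleotide precursor PRPP (-0.56 and -0.87), fell. Of 12 genes for the entry of pyruvate into mitochondria, 2 rose in each response, and 5 fell in vehicle cells and 6 in AG-120 cells, with medians of -0.30 and -0.40. The carrier subunit MPC1 rose by 1.52 and 1.49 on the log2 scale, and PDP1, the phosphatase that reverses PDK1's action, by 0.84 and 0.89. The dehydrogenase subunits PDHA1 (-0.78 and -0.69) and DLAT (-0.82 and -0.89) fell. Without vehicle_Nutlin replicate 3, 8 of these 12 genes fell in vehicle cells.

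Gluconeogenesis and glycogen genes counted 4 of 14 higher in each response, 6 lower in vehicle cells and 7 lower in AG-120 cells, with medians of -0.12 and -0.46. The part called higher was close to that of all genes (26.8% and 27%), and the part called lower above it (27.1% and 28.8%). Besides GBE1, the rule for named genes gave the glycogen phosphorylase PYGL (-0.72 and -1.26), the mitochondrial carboxykinase PCK2 (-0.76 and -1.07) and pyruvate carboxylase, PC (-0.86 and -0.78), which all fell. Of 14 tested genes for other forms of glycolytic enzymes and transporters, 3 rose and 6 fell in each response, with medians of -0.56 and -0.55. Rises were no more frequent here than among all genes. The glucose transporter SLC2A8 rose by 1.80 and 1.82, while its relative SLC2A6 (-1.16 and -1.58), the hexokinase-like HKDC1 (-0.57 and -0.92) and the monocarboxylate transporter SLC16A7 (-1.56 and -2.14) fell. On the list labelled p53 targets that act on glucose metabolism, 8 of 10 genes rose in each response. There 0 were lower in vehicle cells and 1 in AG-120 cells, with medians of 2.47 and 2.41. The label is broad, as the list also holds genes of other metabolism, such as GLS2. The glutaminase GLS2 rose by 4.65 and 4.66, the stress regulators SESN1 by 3.49 and 3.29 and SESN2 by 2.46 and 2.44, and PANK1, a pantothenate kinase, by 2.20 and 2.34. TIGAR (C12orf5 in the table), which lowers fructose-2,6-bisphosphate and was named after its values were seen, rose from 26.3 ± 1.26 to 195 ± 19.8 CPM and from 26.8 ± 4.90 to 194 ± 6.01 CPM.

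**Figure D4:**
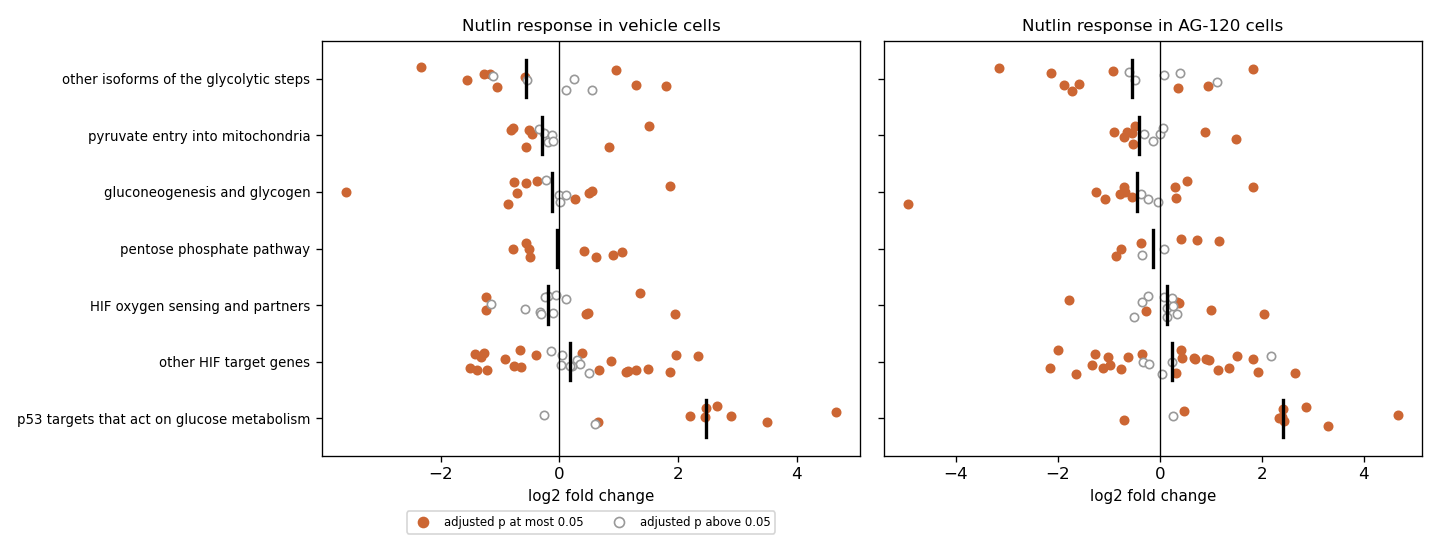
Log2 fold change with Nutlin (x axes) of each tested gene in 7 lists of related pathways (y axis), in vehicle cells on the left and AG-120 cells on the right, with filled points for called genes, open points for the others and a bar at each list's median. Every list has points on both sides of 0 in both panels, and the list labelled p53 targets that act on glucose metabolism lies mostly to the right.

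The next question was what 22 days of AG-120 did to the list without Nutlin. No member was called by edgeR, against 0.051% of all genes called higher and 0% lower. At an unadjusted p of at most 0.05, 2 of 30 members passed, against 1254 of 15691 genes. DESeq2 called 0 members, and limma voom with sample weights called 2 higher (PDK1 and SLC16A3) and 1 lower (NDRG1). Over all genes, edgeR called 8, DESeq2 90 and voom 919. Changes ran from -0.25 ± 0.09 for NDRG1 to 0.46 ± 0.13 for PFKFB2, the members that passed before adjustment (edgeR adjusted p = 0.5172 and 0.3514). NDRG1 was lower in 3 of 3 AG120 libraries, and without the 3 libraries that stood apart its change was -0.32. Besides these 2, the AG120 libraries did not overlap with vehicle for HK2 (0.24), PDK1 (0.27), SLC16A3 (0.19), HIF1A (0.15), PFKM (-0.09) and SLC2A1 (-0.13), and none was called. These 8 are 26.7% of the members tested, and the groups did not overlap for 21.8% of all genes tested. Without the 3 libraries the change of SLC16A3 was 0.21. LDHA stood at 1384 ± 51.1 CPM in vehicle and 1391 ± 141 CPM in AG120, and CA9 at 2.23 ± 0.148 and 2.09 ± 0.616 CPM. AG120 was a group with uneven replicates, and an uncalled change does not show that AG-120 left these genes as they were.

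With Nutlin, AG-120 raised 1 member. ENO2 was at 189.9 ± 5.86 CPM in AG120_Nutlin and 133 ± 10.7 CPM in vehicle_Nutlin (mean ± SD, n = 3), higher in 3 of 3 AG120_Nutlin libraries, with a log2 change of 0.52 ± 0.09 (edgeR adjusted p = 0.01326). Among all genes 0.433% were called higher and 1.93% lower. Its adjusted p over the alternatives ran from 1.171e-05 to 0.149, and leaving out any 1 AG120_Nutlin library ended the call (adjusted p = 0.05948, 0.09232 and 0.07535), as did a fit of the 2 groups alone (0.149). The change was 0.45 (adjusted p = 0.004216) without vehicle_Nutlin replicate 3. The other 29 members were not called, although 18 of the 30 (60%) had no overlap between the groups, against 28.3% of all genes tested, and 16 had an unadjusted p of at most 0.05, against 3067 of 15691 genes. These values share their libraries with the Nutlin responses. LDHA was at 280.5 ± 15.4 CPM in AG120_Nutlin against 390.2 ± 96.9 CPM in vehicle_Nutlin (-0.48 ± 0.15, adjusted p = 0.113), PDK1 had -0.49 ± 0.14 (0.099), SLC16A1 -0.33 ± 0.08 (0.06234) and NDRG1 0.30 ± 0.09 (0.1052).

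These values rest in part on vehicle_Nutlin replicate 3, in which LDHA was at 502 CPM and PDK1 at 11.4 CPM, the highest of that group. Without it SLC16A1 was called (-0.35, adjusted p = 0.03381), LDHA was at -0.25 (adjusted p = 0.139) and PDK1 at -0.30 (adjusted p = 0.2077). Without vehicle_Nutlin replicate 1, PDK1 was called instead (-0.61, adjusted p = 0.02868), and without AG120 replicate 1, SLC16A1 (adjusted p = 0.03216) and ADM (0.35, adjusted p = 0.04267). Over all genes, the fits without vehicle_Nutlin replicate 3, vehicle_Nutlin replicate 1 and AG120 replicate 1 called 683, 1037 and 569. With all libraries it was 371. Without the 3 libraries that stood apart, 1 vehicle_Nutlin library is left, assumed to vary like the other groups. That fit gave 0.43 for ENO2, 0.42 for NDRG1, 0.28 for HK1 and 0.35 for SLC16A3. Its values were -0.26 for LDHA, -0.22 for ENO1, -0.19 for PDK1 and -0.34 for SLC16A1.

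Whether AG-120 changed the Nutlin response was tested by the interaction. No member passed by edgeR, against 0.0319% of all genes higher and 0.331% lower, and 7 of 30 members had an unadjusted p of at most 0.05, against 1730 of 15691 genes. DESeq2 called ENO2 and NDRG1 higher, and so did voom with sample weights. Over all genes, edgeR called 57, DESeq2 200 and voom 433. ENO2 came nearest, with a rise larger in AG-120 cells by 0.60 ± 0.13 on the log2 scale (adjusted p = 0.08493), followed among the risers by NDRG1 at 0.56 ± 0.13 (adjusted p = 0.1218). Without vehicle_Nutlin replicate 3 both passed, ENO2 at 0.54 (adjusted p = 0.0165) and NDRG1 at 0.53 (adjusted p = 0.03684). That fit called 243 of all genes, against 57 with all libraries. Without the 3 libraries that stood apart, ENO2 had 0.46, NDRG1 0.74, HK1 0.32 and SLC2A1 0.33. These values rest on 1 vehicle_Nutlin library, and only their size is given. Among members that fell, PDK1 had -0.75 ± 0.19 (adjusted p = 0.1547), LDHA -0.48 ± 0.21 (0.4229) and ENO1 -0.53 ± 0.22 (0.4065). For PDK1, LDHA and ENO1 the difference was -0.44, -0.18 and -0.17 without the 3 libraries, over 1.5 times smaller in each case. HK2, whose log2 changes of -1.65 and -1.64 were close, had an interaction of 0.01 ± 0.17.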

How the data were processed

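Poly(A) RNA from 12 RBE libraries was sequenced as paired reads of 150 bases, per the labels' protocols. Values are whole-number counts of reads for each symbol, as deposited by the authors, not normalized. Tools named in the submitters' processing notes are HTSeq, STAR, DESeq2 and Partek, with the build hg19 and without versions or roles. Groups come from the sample titles. The fit used R 4.3.3 and edgeR 4.0.16: filterByExpr on the 4 groups left 15691 genes, libraries were scaled by TMM, and 1 quasi-likelihood model with a term per group gave 5 contrasts, each adjusted by the Benjamini-Hochberg method. The SE is the absolute log2 fold change over the root of the F statistic. Gene positions are from the table, with 1 subtracted from each end coordinate. Transcript lengths, found for 86.1% of tested genes, are from GENCODE 29 (GRCh38), used as lengths only. The functions were tested on simulated data.

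The members and lists were chosen with earlier results of these data known. Every member was accounted for. Values per library were given for members called in an AG-120 comparison or the interaction, the 12 largest called Nutlin changes, and HIF1A, SLC2A1, HK2, LDHA, VEGFA, CA9 and GAPDH. Of each other list, the 4 genes with the smallest adjusted p were named. Some genes that this rule covers are not reported here. As alternatives, the fit was repeated in DESeq2 1.42.0, with its size factors in edgeR, with library totals as the scale, with all genes or those at 1 CPM in 3 libraries, with a replicate block, with the compared groups alone, with limma 3.58.1 voom and sample weights, with a length offset, without the 3 libraries that stood apart, and without each library in turn.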

Additional observations from a re-analysis of the deposited data

How the results depend on the processing

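Of 81 member values followed through 22 alternatives, 48 had been called, and none of the 81 changed sign. Of the 48, 42 were called in every alternative. The others were HK1, HIF1A, VEGFA and PGAM1 in vehicle cells, SLC2A1 in AG-120 cells and ENO2 under AG-120 with Nutlin. Counts of members are given as higher and lower. In both Nutlin responses every alternative stayed within 1.5 times of the counts with all libraries. Leaving out 1 library in turn gave 6 to 9 higher and 13 to 17 lower in vehicle cells, 8 higher and 16 to 17 lower in AG-120 cells, 0 and 0 for AG-120 without Nutlin, 0 to 2 higher and 0 to 1 lower for AG-120 with Nutlin, and 0 to 2 higher and 0 lower for the interaction. Over all genes these fits called 7283 to 9348, 7665 to 10311, 1 to 241, 61 to 1037 and 23 to 243, in the same order. The fit without the 3 libraries that stood apart leaves 1 vehicle_Nutlin library, and its counts for AG-120 and the interaction are not given. For AG-120 without Nutlin, voom weights gave 2 and 1. Over all genes that fit called 919, against 8 by edgeR with all libraries. For AG-120 with Nutlin, DESeq2 gave 1 lower, no filter 2 lower, the length offset 1 lower, a fit of the groups compared 0 higher, and voom weights 3 and 3. Over all genes these fits called 837, 1272, 405, 15 and 979 in that order, against 371 by edgeR with all libraries. For the interaction, DESeq2 gave 2 higher, voom weights 2, the length offset 1 and leaving out the 3 libraries 4. The cause was not tested. With the replicate number as a block, the counts were 8 and 14, 8 and 17, 0 and 0, 1 and 0, and 0 and 0 for the 5 comparisons in that order, and the block changed no call of a member followed. Same-numbered libraries of different groups did not deviate together: over 18 pairs the correlation of deviations ran from -0.224 to 0.116, so the numbers are not taken as pairs. Of 132 group levels, 20 moved by more than 1 SD with library totals. Counts of a few reads, as for CA9, ALDOC, ANKRD37, LDHB, SLC2A3 and PDK3, limit what can be said of these genes. The floors cover counting error only, while the SE, taken from the model, also holds the spread between libraries.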

Other observations

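The 15 genes for the enzymes from hexokinase to pyruvate kinase together took 1.68%, 1.70% and 1.66% of all counts in the vehicle libraries and 1.79%, 1.64% and 1.63% in AG120. They took 1.22%, 1.21% and 1.23% in AG120_Nutlin, and 1.29%, 1.26% and 1.73% in vehicle_Nutlin replicates 1, 2 and 3. Replicate 3 of vehicle_Nutlin thus lay at the level of the libraries without Nutlin, although LDHA, GPI and HK2 were low in it. GAPDH and PKM make up much of this sum.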
